A study of Homo sapiens with 6 samples.

Results

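The 50 genes described here lie on the distal long arm of chromosome 16, from PLCG2 at its inner end to GAS8 near the telomere. SDR42E1, the gene targeted in this study, lies between PLCG2 and the other 49 and is itself left out of the 50. They were taken by name from a count table of 46287 rows and were chosen by their position (from about PLCG2 to the end of the long arm), with the log2 fold changes of knockout over control in these same libraries already known. That difference is therefore given as a description: members past a threshold are counted beside the share over all genes, and no p-value is given for them. RNA was sequenced from HaCat cells, human epidermal keratinocytes that became immortal spontaneously in culture. One group held 3 libraries of wild-type control cells and the other 3 libraries of cells with a CRISPR/Cas9-made homozygous knockout of SDR42E1; no treatment is named. The labels call the 3 libraries of each group biological replicates and do not say whether each had its own culture or its own edited clone, so p-values measure only the spread between these libraries, which may be technical. Where SDR42E1 was cut is not stated in the labels, and DNA was not analysed here.

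Neighbouring genes on a chromosome share its DNA and can share regulatory sequences, but side-by-side position in the human genome rarely means shared function. The genes of this stretch belong to unrelated processes. They encode signalling enzymes, proteases, cytoskeletal proteins, parts of RNA, autophagy and DNA repair complexes, an ion channel and a pigment receptor. Most are expressed in many tissues, while NECAB2, IRF8 and CBFA2T3 are known from neurons and blood cells.

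Library totals ran from 11504473 to 16928201 counts, and the 50 genes together took 16329 to 41234 counts of each library. All 12 keratinocyte markers examined, KRT5, KRT14 and TP63 among them, had a mean of at least 10 CPM, counts scaled to a common library size, and they summed to 9020 to 9764 CPM in control and 8326 to 8755 CPM in knockout libraries. Markers of other cell types had far lower sums. The 7 fibroblast markers summed to 4.30 to 6.19 CPM in control and 1.12 to 2.13 CPM in knockout libraries, with DCN and PDGFRA at 0 counts. The 7 melanocyte markers summed to 24.3 to 25.2 and 19.5 to 23.7 CPM, with TYR at 0 counts and 1 other marker at a mean of at least 10 CPM. The 6 immune markers summed to 5.68 to 8.68 and 8.31 to 9.94 CPM, with CD3E at 0 counts, and the 5 endothelial markers to 3.65 to 4.28 and 1.92 to 2.81 CPM.

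SDR42E1 RNA, the check of the labels, had 46.8, 47.6 and 48.8 CPM in the control libraries and 23.2, 20.1 and 20.7 CPM in the knockout libraries. Its log2 fold change, knockout over control, was -1.16 with a standard error (SE) of 0.08. As 9 of the 46 tested members lay lower still, this value separates the groups but does not single out SDR42E1. CPM uses the TMM-adjusted library size, TMM being a scaling that assumes most genes do not differ.

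Of the 50 genes, 46 had enough counts to be tested and 46 of these 46 had a log2 fold change below 0, where 50.6% of all 12293 tested genes did. The median was -0.69, or 62.1% of the control level, against a median of -0.00 over all tested genes. The quartiles were -1.02 and -0.58, and the range ran from -1.91 for DBNDD1 to -0.13 for CYBA. With edgeR's quasi-likelihood test and an adjusted p threshold of 0.05, 45 were lower and 0 were higher. Over all tested genes 25.8% were lower and 24.6% higher at that threshold. Every knockout library lay below every control library in 45 of the 46, against 29% of all tested genes. Since the list was drawn up with this contrast known, nothing is read from these counts. In bulk RNA, less RNA in every cell and loss of the RNA from a part of the cells cannot be told apart.

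**Figure D1:**
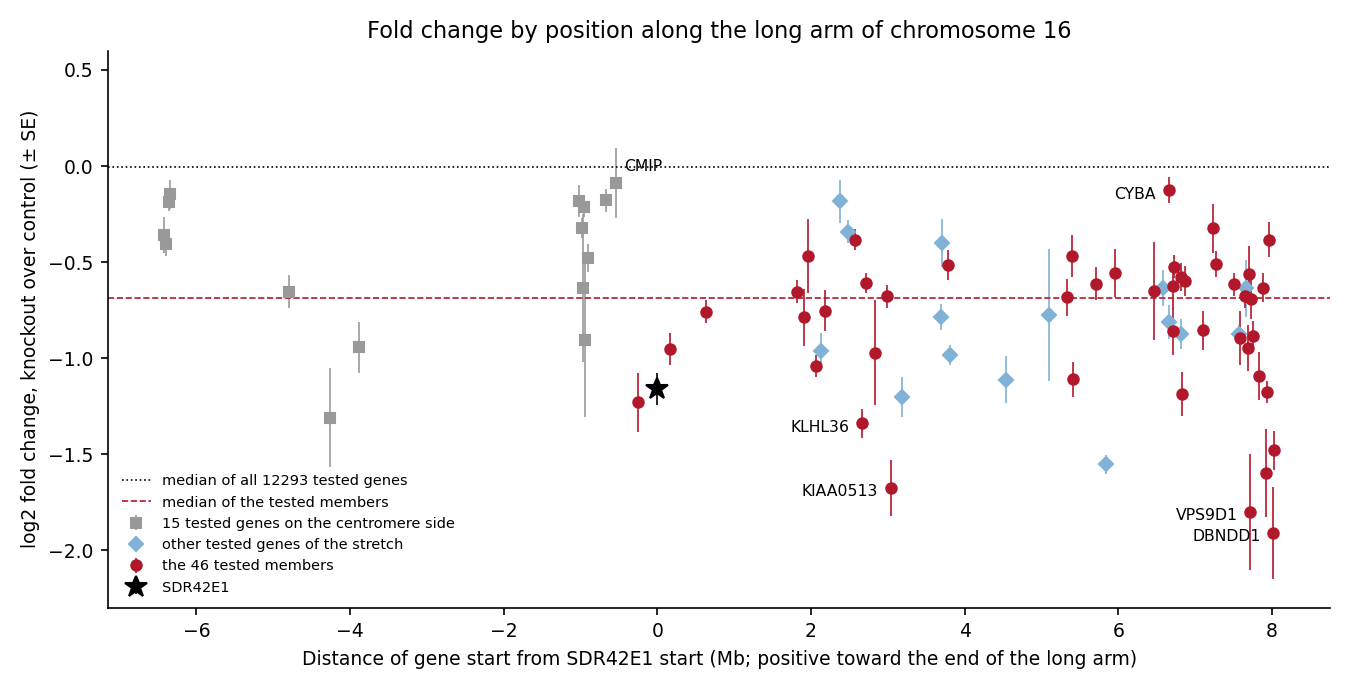
Log2 fold change (knockout over control, ± SE) against the distance of each gene's start from the start of SDR42E1 in megabases, for the 46 tested members, SDR42E1, 15 other tested genes of the same stretch and the 15 nearest tested genes on the centromere side. All plotted genes lie below 0; the members spread from -1.91 to -0.13 around a median of -0.69.

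The libraries of each group gave similar pictures. Per library, the median log2 ratio of the 46 genes to their mean control CPM was -0.01, 0.01 and -0.01 in control libraries 1 to 3 and -0.76, -0.67 and -0.79 in knockout libraries 1 to 3. The summed level of the 50 genes was 2347, 2386 and 2352 CPM in control and 1413, 1492 and 1428 CPM in knockout libraries, so the knockout mean was 61.1% of the control mean. Knockout library 2 held the highest of the 3 knockout values for 20 of the 46 genes and the lowest for 6, while knockout library 1 held the lowest for 25. The coefficient of variation of CPM had a median of 4.97% over the genes in control and 10.6% in knockout libraries, while counting alone would give medians of 4.65% and 6.92%. Over all tested genes the medians were 5.78% and 6.96%.

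**Figure D2:**
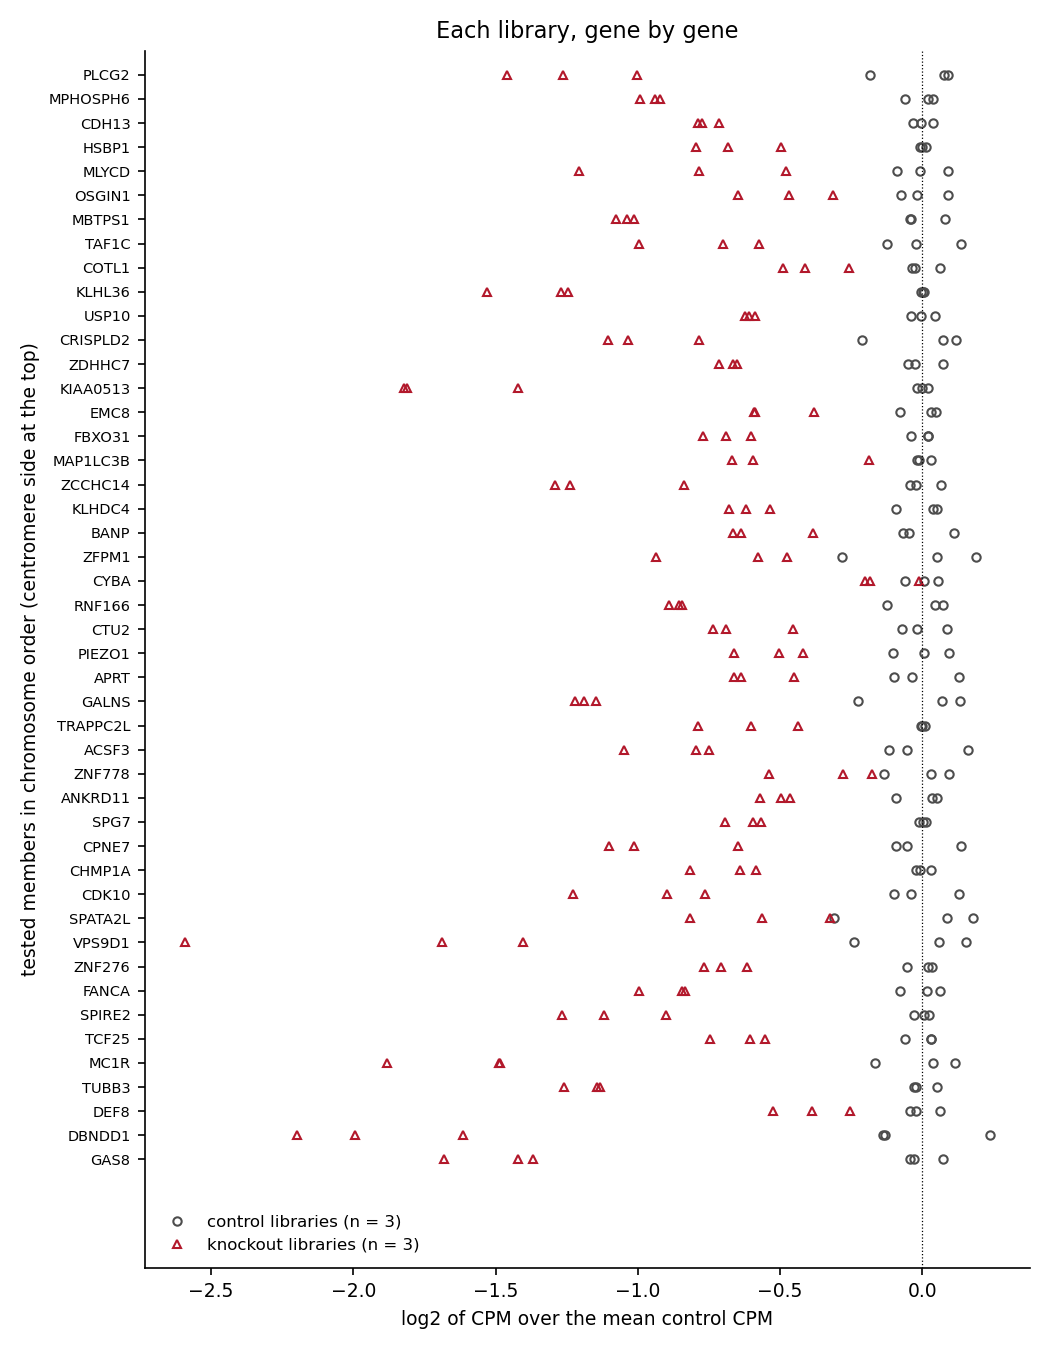
Log2 of CPM over the mean control CPM in each of the 3 control libraries (circles) and 3 knockout libraries (triangles), for the 46 tested members in chromosome order. CYBA is the one gene in which the groups overlap, and in SPATA2L and ZNF778 the highest knockout library comes close to the lowest control library.

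The size of the difference varied from gene to gene by more than its error. The log2 fold changes had an SD of 0.40 over the 46 genes, and their SEs had a median of 0.10 and a range of 0.05 to 0.30. At -1 or lower stood 12 genes, between -1 and -0.5 stood 28, and 6 were above -0.5. Over all tested genes 5.4% were at -1 or lower and 14.1% at -0.5 or lower. SDR42E1 lay 0.47 below the median of its neighbours, and 9 of the 46 lay lower still. Counted against its neighbours, SDR42E1 had 19.9, 19.9 and 20.7 counts per 1000 counts of the 50 genes in control libraries and 16.4, 13.5 and 14.5 in knockout libraries.

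Small and large differences lay side by side along the whole stretch. From PLCG2 to EMC8 (chr16:81739097-85799608, GRCh38) 15 tested genes had a median of -0.76, from FBXO31 to TRAPPC2L (chr16:87326987-88862686) 13 had a median of -0.61, and from ACSF3 to GAS8 (chr16:89088375-90044975) 18 had a median of -0.87. Each of these 3 stretches held values from above -0.4 to below -1.1. Across the 46 genes, Spearman's rho of the log2 fold change with start position was -0.11, with exon length -0.08 and with gene span -0.07. With mean log2 CPM it was 0.33, where genes of low counts also carry the largest errors. Genes share libraries and are not independent replicates, so these coefficients only describe the 46. The median absolute difference was 0.36 between the 45 adjacent pairs and 0.33 over all 1035 pairs. The 26 genes of the plus strand had a median of -0.73 and the 20 of the minus strand -0.68.

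Promoter sequences are shown for the 2 genes on either side of SDR42E1, PLCG2 and MPHOSPH6, and for the 2 lowest and 2 highest fold changes with a RefSeq entry (VPS9D1, KIAA0513, ZNF778 and CYBA), to let the letters be read beside the values. Each is the 250 bases before the RefSeq gene start (GRCh38.p14), 5′ to 3′ on the gene's own strand, and 42 of the 50 genes had such a window. Capitals mark GC boxes (GGGCGG or CCGCCC) and ETS core motifs (CCGGAAG or CTTCCGG), the motifs found in these 6 windows out of 5 searched on both strands.
PLCG2, chr16:81738791-81739040, plus strand: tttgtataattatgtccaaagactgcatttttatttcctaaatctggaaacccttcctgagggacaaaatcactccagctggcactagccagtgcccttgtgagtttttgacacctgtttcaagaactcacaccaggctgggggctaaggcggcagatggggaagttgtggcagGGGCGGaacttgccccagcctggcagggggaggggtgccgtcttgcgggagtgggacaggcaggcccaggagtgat
MPHOSPH6, chr16:82170225-82170474, minus strand: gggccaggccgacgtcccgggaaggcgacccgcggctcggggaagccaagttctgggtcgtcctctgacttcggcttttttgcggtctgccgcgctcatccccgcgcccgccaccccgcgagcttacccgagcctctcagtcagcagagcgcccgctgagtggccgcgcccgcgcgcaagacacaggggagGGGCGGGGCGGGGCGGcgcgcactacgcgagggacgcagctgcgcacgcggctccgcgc
VPS9D1, chr16:89720899-89721148, minus strand: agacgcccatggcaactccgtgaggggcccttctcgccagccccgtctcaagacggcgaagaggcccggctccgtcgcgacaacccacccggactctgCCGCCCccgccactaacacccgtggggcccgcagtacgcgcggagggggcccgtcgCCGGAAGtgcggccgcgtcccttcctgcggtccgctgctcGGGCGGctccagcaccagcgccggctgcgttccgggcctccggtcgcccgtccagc
KIAA0513, chr16:85027545-85027794, plus strand: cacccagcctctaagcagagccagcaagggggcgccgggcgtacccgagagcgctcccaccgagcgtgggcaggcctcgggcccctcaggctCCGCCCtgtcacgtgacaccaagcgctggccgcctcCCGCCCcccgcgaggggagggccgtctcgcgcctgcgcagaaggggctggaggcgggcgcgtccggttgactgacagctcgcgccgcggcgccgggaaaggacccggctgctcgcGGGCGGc
ZNF778, chr16:89217453-89217702, plus strand: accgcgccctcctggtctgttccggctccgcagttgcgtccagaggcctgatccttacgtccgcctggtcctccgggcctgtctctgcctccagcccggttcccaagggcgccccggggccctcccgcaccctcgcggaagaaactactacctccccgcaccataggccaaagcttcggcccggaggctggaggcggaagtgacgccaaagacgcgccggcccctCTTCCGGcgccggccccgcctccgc
CYBA, chr16:88651054-88651303, minus strand: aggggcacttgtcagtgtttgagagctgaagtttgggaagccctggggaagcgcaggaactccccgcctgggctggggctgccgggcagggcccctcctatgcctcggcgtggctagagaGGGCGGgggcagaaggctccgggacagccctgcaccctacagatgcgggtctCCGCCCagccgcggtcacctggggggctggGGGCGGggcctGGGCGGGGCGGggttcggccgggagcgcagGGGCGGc

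The PLCG2 window stands apart in composition, with 4 CG dinucleotides and 54.4% G and C, while the other 5 windows held 18 to 38 CG dinucleotides. CYBA, with the smallest difference, had 6 GC box matches, overlapping ones included, and ZNF778 had 0. Among the 40 tested members with a window, 35 (87.5%) held a GC box, against 67.6% of the windows of 9870 tested genes and 42.3% of all 27305 windows. An ETS core stood in 27.5% of the members' windows (16.6% of tested genes, 8.82% of all), a CCAAT box (CCAAT or ATTGG) in 17.5% (35.7% and 33%) and a TATA box (TATAAA or TTTATA) in 2.5% (5.65% and 11.1%). The NRF1 core was in 0 of the 40 (1.61% and 0.956%). The members' windows held a median of 31 CG dinucleotides and 74.6% G and C, against 21 and 64.8% for tested genes. The motif shares were not adjusted for this difference in composition. The log2 fold change had a rho of -0.08 with the number of CG dinucleotides over the 40 genes. A match is a run of letters and no evidence of binding.

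At the inner edge, PLCG2 (chr16:81739097-81962693) encodes phospholipase C gamma 2, which splits a membrane phosphoinositide downstream of receptors. It had 11.7, 14.2 and 14.0 CPM in control and 4.84, 5.54 and 6.65 CPM in knockout libraries, a log2 fold change of -1.23 (SE 0.15). The next tested gene toward the centromere, CMIP, ends 27.3 kb away and was not among the members. Its log2 fold change was -0.09 (SE 0.18). CMIP was the least lowered of the 15 nearest tested genes on that side, whose median was -0.36. All 3 knockout libraries were lower than the control libraries for PLCG2, while for CMIP the groups overlapped. On the other side of SDR42E1, MPHOSPH6 (chr16:82147798-82170226), a cofactor of the RNA exosome, had 47.9, 47.3 and 44.7 CPM in control and 24.6, 24.3 and 23.4 CPM in knockout libraries (log2 -0.95, SE 0.08). Within each group its 3 libraries lay close together.

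Beyond MPHOSPH6, CDH13, a cadherin anchored to the membrane by lipid, had 93.9 ± 2.36 CPM in control and 55.5 ± 1.58 CPM in knockout cells (mean ± SD, n = 3 each, as for all means below). HSBP1, a small protein that binds heat shock factor 1, had 169 ± 1.15 and 107 ± 11.4 CPM. MLYCD, which breaks down malonyl-CoA, had 14.2 ± 0.896 and 8.18 ± 2.02 CPM. Their log2 fold changes were -0.76, -0.65 and -0.79. OSGIN1, a gene induced by oxidative stress, was low, with 6.48, 5.79 and 6.01 CPM against 3.89, 4.40 and 4.90 CPM, and its difference was among the smallest (log2 -0.47, SE 0.19). NECAB2, a neuronal calcium-binding protein, had 0 counts in all 6 libraries, where 3 counts in a library correspond to 0.173 to 0.262 CPM.

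MBTPS1 (chr16:84053761-84116906) encodes site-1 protease, which makes the first cut that releases the sterol regulators SREBP and the stress sensor ATF6. It had 119, 119 and 129 CPM in control and 60.5, 59.5 and 57.9 CPM in knockout libraries (log2 -1.04, SE 0.06), 48.6% of the control level. TAF1C, a subunit of the RNA polymerase I factor SL1, had 28.8 ± 2.63 and 17.2 ± 2.50 CPM (log2 -0.75). COTL1, an F-actin-binding protein, was one of the most abundant of the 50 and one of the least lowered, with 185, 198 and 186 CPM against 135, 159 and 142 CPM (log2 -0.38, SE 0.05). MBTPS1 and COTL1 lie within a megabase of each other, and their values differed by several SEs.

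KLHL36, a Kelch-like protein of the family of cullin-3 adaptors, was among the lowest. It had 75.6, 75.9 and 76.1 CPM in control and 26.3, 32.0 and 31.5 CPM in knockout libraries (log2 -1.34, SE 0.07). USP10, the next gene, is a deubiquitinase known to act on p53, and it had 147, 152 and 143 CPM against 95.5, 98.0 and 96.4 CPM (log2 -0.61, SE 0.05). The control libraries of KLHL36 and the knockout libraries of USP10 were each nearly equal. CRISPLD2, a secreted protein, had 3.58 ± 0.431 and 1.83 ± 0.218 CPM (log2 -0.97, SE 0.27). ZDHHC7, a palmitoyltransferase, had 103, 111 and 102 CPM in control and 64.2, 66.4 and 67.0 CPM in knockout libraries (log2 -0.68, SE 0.06).

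KIAA0513 (chr16:85027751-85094230), whose promoter is shown above, had 16.6, 16.4 and 16.2 CPM in control libraries and 4.67, 4.63 and 6.12 CPM in knockout libraries. Its log2 fold change of -1.68 (SE 0.14) left 31.3% of the control level. The 3 knockout libraries were all far below the narrow control range. EMC8, a subunit of the complex that inserts membrane proteins at the endoplasmic reticulum, had 50.1 ± 2.33 and 35.0 ± 3.03 CPM (log2 -0.52). Between EMC8 and FBXO31 lies the widest gap between tested members, 1.53 Mb. It holds IRF8, a transcription factor of myeloid and B cells, which had 0 counts in all 6 libraries.

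After that gap, FBXO31, the substrate-binding part of an SCF ubiquitin ligase, had 26.8 ± 0.620 and 16.7 ± 0.980 CPM (log2 -0.68). MAP1LC3B encodes LC3B, which is joined to lipid on the autophagosome membrane. It had 24.0, 24.1 and 24.8 CPM in control and 15.3, 16.1 and 21.3 CPM in knockout libraries (log2 -0.47, SE 0.11), and knockout library 3 stood well above the other two. The same library was also the highest for ZCCHC14, a zinc-knuckle protein, with 52.5, 53.3 and 56.6 CPM against 22.1, 22.9 and 30.3 CPM (log2 -1.11, SE 0.09). KLHDC4 had 36.2 ± 2.00 and 23.7 ± 1.20 CPM (log2 -0.61). BANP, a nuclear DNA-binding protein, had 15.8 ± 1.08 and 10.7 ± 1.18 CPM (log2 -0.56), and ZFPM1, a cofactor of GATA factors, 3.85 ± 0.624 and 2.45 ± 0.394 CPM (log2 -0.65, SE 0.26).

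CYBA (chr16:88643283-88651152) was the one tested member not past the threshold. It encodes p22phox, the membrane subunit that stabilizes NADPH oxidases. Its libraries had 63.5, 58.6 and 61.5 CPM in control and 53.2, 60.7 and 53.9 CPM in knockout cells, so that knockout library 2 lay above control library 2. The log2 fold change of -0.13 (SE 0.07) left 91.6% of the control level; without knockout library 2 it was -0.19. SNAI3, of the Snail family of repressors and a little further on, had 9, 12 and 4 counts in control and 2, 4 and 0 counts in knockout libraries and was too low to test.

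The genes RNF166, CTU2 and PIEZO1 lie end to end. RNF166, a ubiquitin ligase, had 17.7 ± 1.28 and 9.74 ± 0.152 CPM (log2 -0.86), and CTU2, which starts 42 bases from it on the other strand and takes part in tRNA thiolation, 18.0 ± 1.00 and 11.7 ± 1.24 CPM (log2 -0.63). PIEZO1, the mechanosensitive cation channel of skin and vessels, had 127 ± 8.60 and 88.4 ± 7.46 CPM (log2 -0.52). APRT, the adenine salvage enzyme, had the highest level per kilobase of exon of the 50, 38.2 CPM per kb in control and 25.6 in knockout cells. Its libraries held 75.3, 67.2 and 64.3 CPM against 44.4, 50.4 and 43.6 CPM (log2 -0.58, SE 0.07).

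GALNS, the lysosomal sulfatase that acts on keratan sulfate, had 20.6, 26.3 and 25.2 CPM in control and 10.6, 10.9 and 10.3 CPM in knockout libraries (log2 -1.19, SE 0.12). TRAPPC2L, a subunit of the TRAPP tethering complexes, overlaps the start of GALNS on the other strand. It had 53.4 ± 0.300 and 35.2 ± 4.26 CPM (log2 -0.60). The adjoining pair thus differed by 0.59 on the log2 scale. CBFA2T3, a corepressor of blood cells, had 3 counts in control library 2 and 0 counts in the other libraries.

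Toward the telomere, ACSF3, the mitochondrial malonyl-CoA synthetase, had 30.9 ± 3.18 and 17.1 ± 1.86 CPM (log2 -0.86). ZNF778, a zinc-finger protein, had the second smallest difference of the 46, with 15.4, 14.8 and 13.2 CPM in control and 9.94, 12.8 and 11.9 CPM in knockout libraries (log2 -0.32, SE 0.13). Its highest knockout library lay just under its lowest control library. ANKRD11, a chromatin regulator, had 66.2 ± 3.55 and 46.5 ± 1.70 CPM (log2 -0.51), and SPG7, the paraplegin subunit of a mitochondrial protease, 92.6 ± 0.806 and 60.3 ± 2.76 CPM (log2 -0.62). These 2 genes start 158 bases apart on opposite strands. CPNE7, a calcium-dependent lipid-binding copine, had 14.6 ± 1.25 and 7.81 ± 1.34 CPM (log2 -0.90).

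CHMP1A, an ESCRT-III subunit, was again an abundant gene, with 108, 112 and 109 CPM in control and 70.3, 73.0 and 62.2 CPM in knockout libraries (log2 -0.68, SE 0.06). CDK10, a cyclin-dependent kinase, had 21.7 ± 1.82 and 11.2 ± 1.79 CPM (log2 -0.95), and SPATA2L 13.7 ± 2.35 and 9.33 ± 1.58 CPM (log2 -0.56). VPS9D1, with a domain that activates Rab GTPases, had the second lowest value of the 46. It had 3.53, 4.34 and 4.63 CPM in control and 0.692, 1.29 and 1.57 CPM in knockout libraries, from 49, 75 and 57 counts against 8, 17 and 18. The log2 fold change of -1.80 carried the largest SE of the 46 (0.30), so that its size is less certain than its direction between these libraries. ZNF276, which overlaps the start of VPS9D1 on the other strand, had 24.1 ± 0.765 and 14.9 ± 0.776 CPM (log2 -0.69), a difference of 1.11 between the pair.

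FANCA, a subunit of the Fanconi anaemia core complex for repair of DNA crosslinks, had 57.7 ± 2.85 and 31.1 ± 1.90 CPM (log2 -0.89). Its exons overlap those of ZNF276 on the other strand. SPIRE2, an actin nucleator, had 19.7, 19.4 and 19.0 CPM in control and 10.4, 8.05 and 8.92 CPM in knockout libraries (log2 -1.09, SE 0.12). TCF25, a partner of the ribosome quality control machinery, had 54.5 ± 1.94 and 35.2 ± 2.37 CPM (log2 -0.63).

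MC1R (chr16:89912119-89920977) encodes the melanocortin receptor that sets pigment type. It was low in both groups, with 5.68, 6.54 and 6.90 CPM in control and 1.73, 2.28 and 2.27 CPM in knockout libraries (log2 -1.60, SE 0.23). Its neighbour TUBB3, a beta tubulin best known from neurons, was abundant, with 141, 148 and 141 CPM against 65.5, 64.9 and 59.9 CPM (log2 -1.18, SE 0.06). For both genes the groups lay far apart. Their exons overlap on the same strand with the gene model AC092143.1, and those of MC1R also with TCF25. Reads could therefore be shared among these genes, and their separate levels are uncertain.

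The last 3 members differed widely. DEF8 had 34.3, 31.9 and 32.4 CPM in control and 27.6, 25.1 and 22.8 CPM in knockout libraries (log2 -0.38, SE 0.09). DBNDD1 (chr16:90004865-90020128), with a dysbindin domain, had the lowest log2 fold change of the 46, -1.91 (SE 0.24). Its libraries held 6.04, 6.02 and 7.79 CPM against 2.16, 1.44 and 1.66 CPM, or 26.6% of the control level. GAS8 (chr16:90019629-90044975), a subunit of the nexin-dynein complex of motile cilia, had 36.7, 33.9 and 34.2 CPM against 10.9, 13.5 and 13.0 CPM (log2 -1.48, SE 0.10). The exons of DBNDD1 and GAS8 overlap at their divergent starts. Beyond GAS8 the table holds 7 rows, of which 1 had any count, 4 over all libraries.

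**Figure D3:**
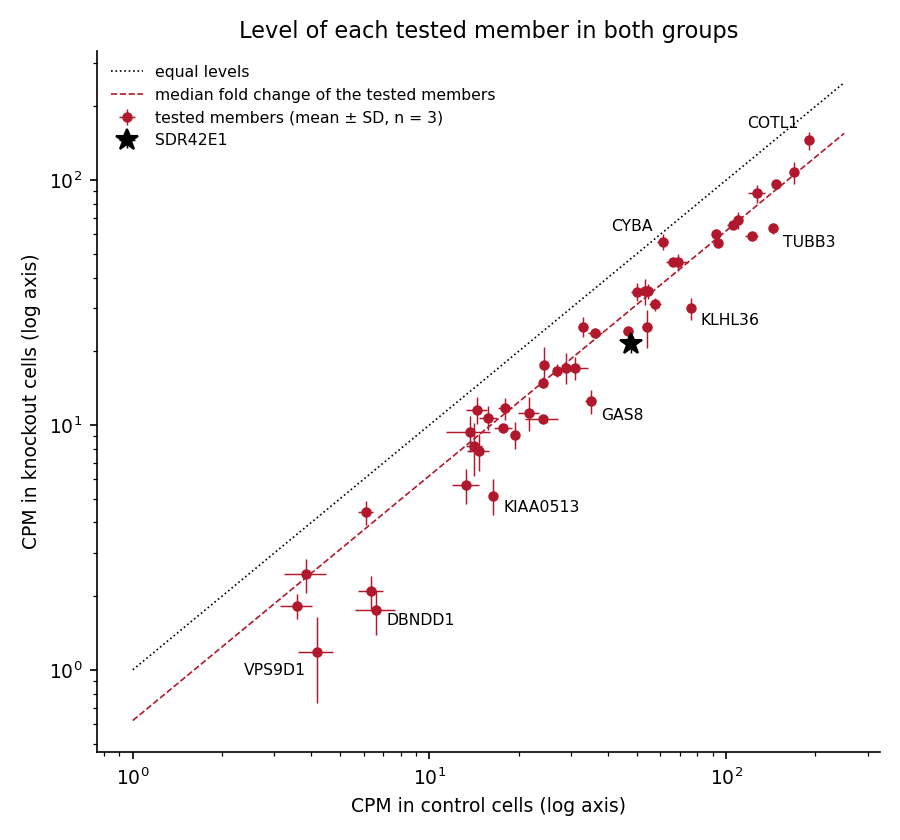
Mean CPM ± SD (n = 3) of the 46 tested members and SDR42E1 in control (horizontal) and knockout cells (vertical), both on log axes. The members scatter around the dashed line of the median fold change (-0.69 on the log2 scale), with quartiles of -1.02 and -0.58. CYBA lies near the line of equal levels and DBNDD1, VPS9D1 and GAS8 well under the dashed line.

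Exon overlaps were common. By GENCODE release 29, 6 of the 50 genes overlap an exon of another protein-coding gene on the same strand (MLYCD, OSGIN1, FBXO31, TCF25, MC1R and TUBB3) and 17 overlap one on the other strand. The library kit marks strand, but no source used here gives the strand setting of the counting, so reads of overlapping genes may have been shared. The 24 tested members with no such overlap had a median log2 fold change of -0.72. In the 5 head-to-head pairs among tested members, with starts within 1000 bases, the 2 genes differed by 0.11 (ANKRD11 and SPG7) to 1.11 (VPS9D1 and ZNF276), with a median of 0.43.

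The remaining genes of the stretch gave a like picture. The table held 175 further rows placed from PLCG2 outward, 147 of them with 0 counts in all libraries, and 15 were tested. All 15 were below 0, where 50.6% of all tested genes were, and 13 were past the threshold, all but ATP2C2 and C16orf95. The 15 had a median of -0.81 and a range of -1.55 (SLC7A5, a large amino acid transporter) to -0.18 (ATP2C2, a calcium pump). The stretch was chosen with this contrast known, so these 15 genes are no separate check on the members. SLC7A5 went from 1035 to 352 CPM on average. RPL13, a ribosomal protein, had -0.87 and COX4I1, a subunit of cytochrome c oxidase, -0.98. On the centromere side, the 15 nearest tested genes, from GABARAPL2 to CMIP, had a median of -0.36 and a range of -1.31 (NUDT7) to -0.09 (CMIP), with 15 of 15 below 0. At the adjusted p threshold, 10 of these 15 were lower and 0 higher, where 25.8% of all tested genes were lower. The difference between the 2 sides of PLCG2 was not tested.

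Many members act in complexes or pathways whose other parts are encoded outside the stretch. Of 165 such partner genes, listed by function in 18 lists, 155 were tested, 7 of them on chromosome 16. Of these 7, EXOSC6 (-0.19), GABARAPL2 (-0.36, one of the 15 genes on the centromere side) and IST1 (-0.36) fell and USP7 (0.18) rose. The tested partners on other chromosomes had a median of 0.07. Over all 155 tested partners, 48 were higher and 25 lower at the adjusted p threshold, 47.1% in all against 50.4% of all tested genes. Their median log2 fold change was 0.07. With upper-quartile scaling the counts were 38 higher and 30 lower. In 14 of the 18 lists the members had a lower log2 fold change than every tested partner; in the other 4, at least 1 partner lay at or below a member. The list of members was drawn up with their fold changes known, so this order was not tested.

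The ER membrane protein complex is one example. EMC8 had -0.52, while 5 of 9 tested partners rose, 0 fell and 4 did not pass (median 0.21). Over all tested genes 24.6% were higher and 25.8% lower at the same threshold. EMC4 rose from 102 ± 2.87 to 132 ± 5.35 CPM (log2 0.37, SE 0.05, edgeR adjusted p = 3.12e-07), and MMGT1 rose by 0.39 (SE 0.06). Beside TUBB3, 3 of 8 tested tubulin genes rose and 0 fell (median 0.10), led by TUBB6, from 74.8 ± 2.38 to 118 ± 6.52 CPM (log2 0.66, edgeR adjusted p = 5.60e-12), and TUBA1C (0.29). Tubulin genes are near-identical in sequence, so their counts may be split. Beside GALNS, 4 of 11 rose and 0 fell (median 0.17), among them HEXA (0.28). In the SCF core, partner of FBXO31, 0 of 5 passed in either direction in edgeR or DESeq2, and 1 of the 5 (RBX1, log2 0.15) had an unadjusted p under 0.05 in edgeR and 0 in DESeq2.

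In the Fanconi list 5 of 13 fell, 0 rose and 8 did not pass (median -0.15), where 25.8% of all tested genes were lower. FANCL fell by 0.44 (SE 0.09, edgeR adjusted p = 4.93e-05) and FANCC by 0.40 (SE 0.08), against -0.89 for FANCA. Among the heat shock genes beside HSBP1, 3 fell and 1 rose of 7 (median -0.27). HSPA1A and HSPA1B, near-identical genes whose reads may be split, fell by 0.67 and 0.63. In the malonyl-CoA and fatty acid synthesis list, 3 fell and 1 rose of 8 (median -0.06), with 2 past the threshold in DESeq2, and ACACA and HSD17B8 changed by -0.42 and -0.71. ACACA lies on chromosome 17, as do SREBF1, GABARAP and PHB below, of which PHB rose.

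Other lists were mixed. At the adjusted p threshold, 24.6% of all tested genes were higher and 25.8% lower. In the exosome list 4 rose and 1 fell of 13 (median 0.11), with 3 past the threshold in DESeq2, EXOSC4 at 0.76 and EXOSC2 at 0.22. In the NADPH oxidase list, where CYBA had -0.13, 3 rose and 1 fell of 5 tested (median 0.16); RAC2 rose by 0.64 and NOXA1, at 1.77 CPM in control cells, fell by 1.66, while NOX1, NOX3 and NOX4 were too low to test. SL1 had 1 rise in 4, TAF1D (0.40), and a median of 0.06. The ATG8 list had 5 rises and 3 falls of 12 (median 0.08), with ATG16L1 at 0.72 and GABARAP at -0.65. ESCRT-III had 3 and 1 of 14 (median 0.02), TRAPP 5 and 1 of 13 (median -0.02), with IST1 of chromosome 16 at -0.36, VPS4B at 0.19, TRAPPC3 at 0.46 and TRAPPC6A at -1.32. SREBP and ATF6 processing had 2 rises and 2 falls of 8 (median 0.08), with SREBF1 at -0.69 and INSIG1 at 0.37. The tRNA thiolation list had 2 and 1 of 4 (median 0.10), with NFS1 at -0.33 and MOCS3 at 0.30. The list around mitochondrial proteases had 3 rises and 1 fall of 8 (median 0.13). The 3 genes that rose do not encode proteases, with the prohibitins PHB at 0.31 and PHB2 at 0.26. Purine salvage had 3 and 2 of 8 (median 0.20), with PNP at 0.68 and ADSS2 at -0.27, and the p53 regulators had 3 and 1 of 5 (median 0.18), with G3BP1 at 0.25 and MDM2 at 0.26. Fewer genes passed with DESeq2 in the NADPH oxidase (3), ATG8 (6), ESCRT-III (3), TRAPP (4) and purine salvage (4) lists. In the tubulin list 4 passed with DESeq2, against 3 in edgeR.

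**Figure D4:**
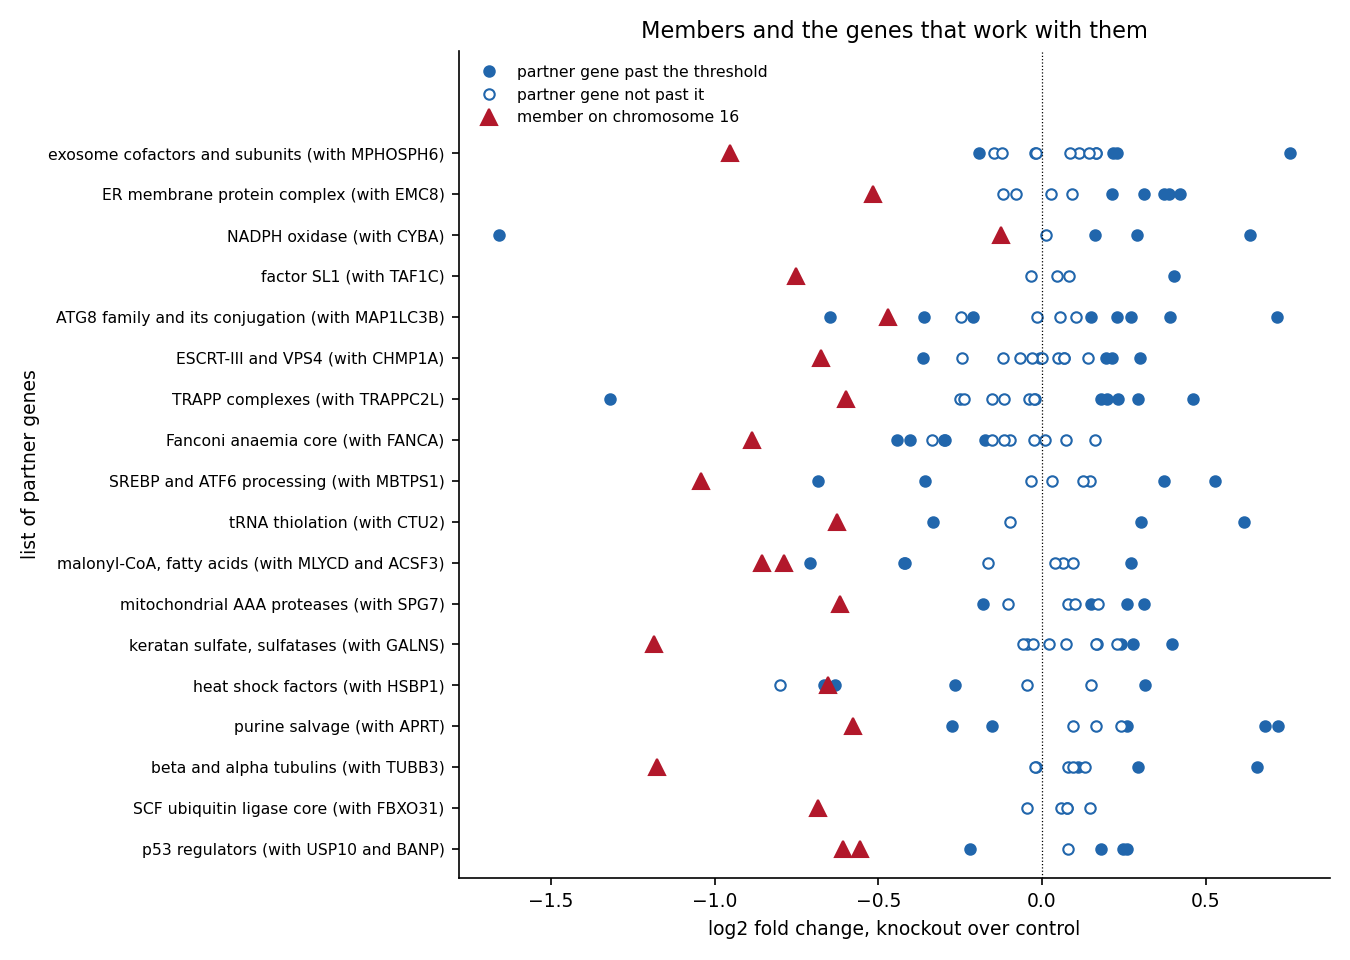
Log2 fold change (knockout over control) of the members (triangles) and of the tested partner genes in 18 lists (filled circles, past the adjusted p threshold of 0.05; open circles, not past it). The partners lie on both sides of 0 with a median of 0.07, and the members at -0.13 to -1.19.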

How the data were processed

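The deposited values are unnormalized counts for each gene in 6 libraries, made by the authors; per the submitters' processing notes the genome build was GRCh38, while aligner, counter and strand setting are not given in the labels. Column names gave each sample. CPM is the count scaled by the TMM-adjusted library size. After filterByExpr (a minimum of 10 counts, and 15 in total), the 2 groups were tested with edgeR 4.0.16's robust quasi-likelihood F test (R 4.3.3), two-sided, over all 6 libraries without a block, with p adjusted by Benjamini-Hochberg over 12293 genes. Log2 fold changes use a prior count of 0.125, and each SE was derived from the fold change and its F statistic. The fit was tested on simulated data in which few genes were changed. In these libraries 50.4% of tested genes passed, so the simulation does not check the assumption behind TMM scaling. Positions, exon unions and overlaps came from GENCODE release 29, which placed 41882 of 46287 rows. Levels per kilobase divide by the exon union over all transcripts, which understates genes with long rare exons. Promoter windows came from RefSeq (GRCh38.p14).

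The members, the partner lists and the tests were chosen with earlier results of these data known. All members are named. Values in every library are given for the 2 members beside SDR42E1, the 12 lowest and the 6 least lowered, and the 6 highest per kilobase of exon; SNAI3 and CBFA2T3 were added for their low counts. From each partner list at most the 2 genes with the smallest adjusted p are named, and 1 of these is not reported here; SLC7A5, RPL13, COX4I1, ATP2C2, C16orf95, NUDT7, EXOSC6, GABARAPL2 and USP7 were chosen after their values were seen. Alternatives were DESeq2 1.42.0, limma-voom (limma 3.58.1), other scalings, filters and prior count, a replicate block, and fits with each library left out. The limit of 3 counts given for a count of 0 covers counting error only.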

Additional observations from a re-analysis of the deposited data

How the results depend on the processing

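In 690 combinations of a tested member with an alternative setting, the log2 fold change stayed below 0 and within 1 SD of the spread between libraries. All settings reuse the same counts, and the members were chosen with their fold changes known, so the kept sign is no separate check. Leaving out 1 of 3 libraries can hardly move a group mean by more than that, so the SD limit could hardly fail there. The members' median ran from -0.73 (without knockout replicate 2) to -0.68 (without control replicate 2), and was -0.69 with TMM factors taken without chromosome 16, -0.72 with upper-quartile scaling and -0.68 with DESeq2. The count of members past the threshold was 42 with DESeq2, 44 with no filter and 42 to 44 with 1 library left out. The calls concerned were OSGIN1, ZFPM1 and ZNF778, each lost under DESeq2 and without control replicate 1 or control replicate 2. OSGIN1 was also lost with no filter (-0.46), without control replicate 3 (-0.48) and without knockout replicates 1 (-0.39) or 2 (-0.47), ZFPM1 without knockout replicates 2 (-0.69) or 3 (-0.53), and ZNF778 without knockout replicate 1 (-0.23). CYBA passed without knockout replicate 2 (-0.19). Partner genes past the threshold numbered 59 to 75 with 1 library left out and 63 with DESeq2, and 0 shared calls changed sign. SDR42E1 had -1.22 to -1.12. Over all genes 5315 to 6425 passed, against 6197.

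Deviations of libraries with the same replicate number were hardly correlated (0.02, -0.09 and -0.01), so no pairing was assumed. Under the replicate block, 45 members were past the threshold, the median was -0.69, SDR42E1 had -1.16, 74 partner genes passed, and 6425 genes passed in all. Low counts limit DBNDD1, VPS9D1, MC1R, CRISPLD2, ZFPM1 and OSGIN1 most, with SEs of 0.19 to 0.30. SNAI3, CBFA2T3, NECAB2 and IRF8 had too few counts to be tested.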
